A study of Drosophila melanogaster with 5 samples.

Results

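Fly heads from Levodopa-fed and untreated control flies at 25 °C were compared by sequencing of poly(A) RNA. The comparison rests on 2 of the 5 samples of the series, and it was chosen by temperature and treatment label. Of 23882 features in the count tables at this temperature, the 11799 with at least 10 counts in 1 column were tested. Both samples are labelled as wild type *Drosophila melanogaster*, and no strain, sex, age or number of flies is given in the labels. The control received no treatment by its label; the treated flies had, per the labels' protocols, 4 g/L Levodopa in standard food for 7 days. The other samples, all at 29 °C, are a wild type control, Levodopa-fed flies and flies that overexpress histone H1 under a temperature-sensitive elav driver. According to its design text, the study addressed a depression-like state in Levodopa-fed flies, together with histone acetylation and histone H1.

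Levodopa is the amino acid from which dopamine is made: tyrosine hydroxylase (encoded by ple) makes it from tyrosine, and dopa decarboxylase (Ddc) turns it into dopamine. In flies dopamine acts in the brain as a transmitter, and in the epidermis the same pathway supplies the pigments and cross-links of the cuticle. A fly head also holds photoreceptors, antennae, muscle, blood cells and a layer of fat body, which stores fat and secretes antimicrobial peptides.

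The tissue is named in the labels both as heads and as brain. Photoreceptors belong to the eye, and their rhodopsin gene ninaE had 33161 and 32808 CPM (counts scaled to a fixed library size) in control and 27580 and 27456 CPM in Levodopa. All 5 antenna markers and all 8 neuron markers passed the count minimum. Of the 4 testis and accessory gland markers none was tested, and of 6 ovary markers 2 were, with a summed level of 0.946 to 2.02 CPM. Total counts were 25947583 and 28856401 in control and 30074894 and 30334054 in Levodopa, so that 3 counts, the limit that a count of 0 allows, correspond to 0.0947 to 0.121 CPM. This limit covers counting error only. The mitochondrial genome held 12.98% and 13.24% of the counts in control and 19.2% and 19.98% in Levodopa.

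Each sample has 2 count columns. The labels do not say whether these are separate groups of flies or repeat libraries of the same RNA, so the p-values given here reflect how far columns of a sample differ, a spread that may be technical. That spread was small, with a common biological coefficient of variation of 2.866%. With 1 labelled sample per group, any difference in rearing, dissection or library preparation cannot be told apart from Levodopa. In whole heads, fewer cells of a type and less RNA per cell cannot be told apart either.

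Fold change at 25 °C followed the length of the transcript. Among protein-coding genes the median log2 fold change (Levodopa over control) climbed from -0.52 in the shortest decile, with a median exonic length of 634 bases, to 0.46 in the longest decile, with a median of 7745 bases. The step was seen at each decile of length in between. Across the 9232 genes with a mean of at least 50 counts, Spearman's rho between exonic length and fold change was 0.622. Over all 11799 tested genes it was 0.354. Between the 2 columns of control and between the 2 columns of Levodopa, over all 11799 tested genes, it was -0.035 and -0.024. Genes are not independent replicates, so these coefficients are descriptions. The same deciles at 29 °C ran from -0.15 to 0.06, over 1 library per group, and rho over 10623 genes was 0.24.

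**Figure D1:**
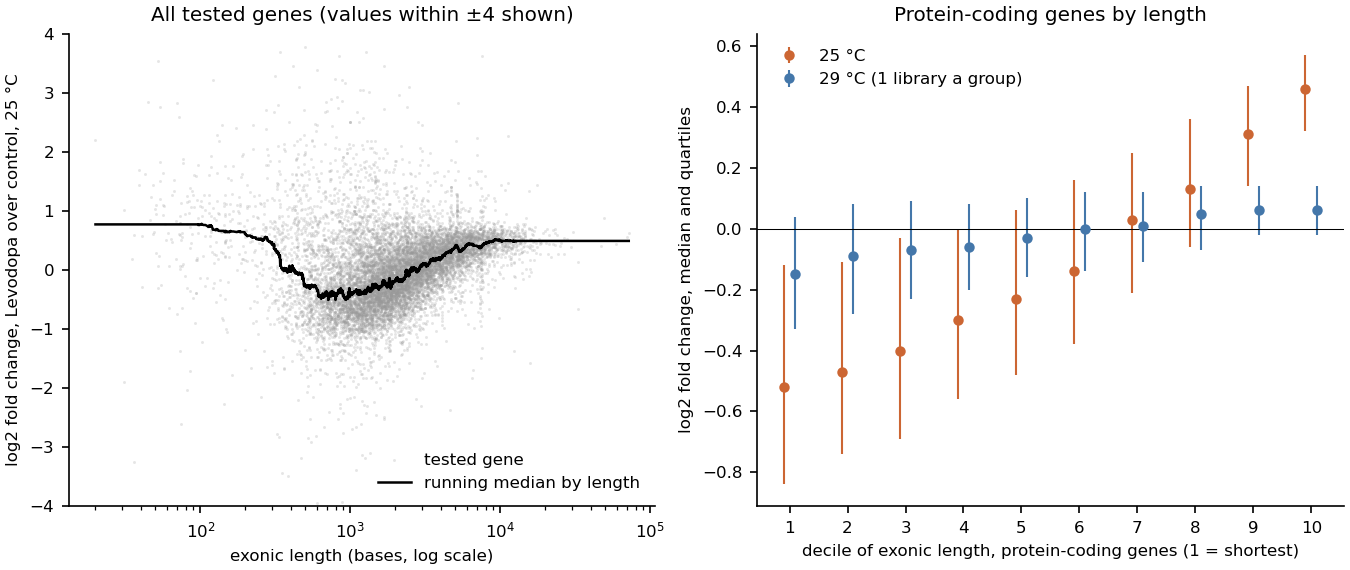
Left, log2 fold change of Levodopa over control at 25 °C for each tested gene (grey points) against exonic length in bases on a log scale, with the running median over the tested genes nearest in length, 100 on either side (black line); 30 genes beyond the ±4 axis are not drawn. Right, median and quartiles of the log2 fold change in deciles of exonic length among protein-coding genes; the 25 °C medians (orange) climb from -0.52 to 0.46, while the 29 °C medians (blue, 1 library a group) run from -0.15 to 0.06.

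The genes were therefore compared in a pair of fits. The plain fit compares the columns as they are, and the length-matched fit compares each gene with the tested genes nearest to it in exonic length, 100 on either side, by subtracting the median fold change. In either fit a gene was called when edgeR's quasi-likelihood test gave a Benjamini-Hochberg adjusted p under 0.05 and the change was at least 2-fold. The plain fit called 237 genes higher (2.01% of those tested) and 371 lower (3.14%), together 5.15%. With total-count scaling in place of TMM it called 355 higher and 208 lower. With the mitochondrial genome also left out of the totals it called 526 higher and 156 lower. The median of all genes was 0.14 and 0.25 higher on the log2 scale in these settings. The length-matched counts moved by at most 1 gene, which was fixed in advance. Subtracting the median removes any shift common to all genes. The length-matched fit called 324 higher (2.75%) and 185 lower (1.57%), together 4.31%. Of the 371 genes lower in the plain fit, 220 were no longer called after length matching, and 163 genes became called as higher. Genes called in the same direction by both fits numbered 161 higher (1.36%) and 151 lower (1.28%), together 2.64%, and "rose" and "fell" are used of these alone. Counts of list members that rose or fell are to be read beside these shares. At an adjusted p under 0.05 without the 2-fold minimum, 58.5% of genes differed in the plain fit and 46.5% in the length-matched fit, and the columns of the groups did not overlap in 76.8%. A difference without a minimum size therefore says little about a given gene.

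The largest changes were losses of transcripts that the control sample held in quantity. For CG16826 control held 48123 and 52557 counts and Levodopa 6 and 1. The gene whe had 7166 and 7760 counts in control and 0 and 1 in Levodopa. CG45080 had 1369 and 1562 counts in control and none in either Levodopa column, which makes it at least 1186-fold lower when 3 counts over the group are taken as the limit. For these 3 genes the groups lay far apart and the columns of a group lay close together. Other genes with no Levodopa count were also high in control: CG30371, with a trypsin domain, was at least 689-fold lower, CG13947 at least 662-fold and CG44142 at least 272-fold. Ag5r, which encodes a secreted protein of the antigen 5 family, fell less far, from 3708 and 4105 counts to 34 and 29. LysP, a lysozyme made in the salivary gland, had 579 and 627 counts in control and 5 in both Levodopa columns. Among the most abundant of the falling transcripts was lcs on the X chromosome, from 22375 and 25008 counts to 1330 and 1359, a log2 fold change of -4.42 ± 0.03 (SE, n = 2 columns per group); lcs was named after its values were seen.

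With a threshold chosen after the values were seen, 10 genes had at least 100 summed counts in control and at most 3 in Levodopa, and 0 genes showed the opposite. The transcripts missing from the Levodopa sample were missing at 29 °C as well. All 10 genes had at most 10 counts in each of the 3 libraries at 29 °C, the untreated control included. At 29 °C control held 2 counts of CG16826, with 0 in both the Levodopa and the H1 overexpression library. For LysP the control, Levodopa and H1 overexpression libraries held 0, 3 and 0 counts, and for lcs 38, 30 and 36. Among the 18 genes that fell by at least 3 on the log2 scale in both fits from at least 100 control counts, 17 had at most 50 counts in the 29 °C control. The sample that stands apart for these genes is thus the control at 25 °C, and whether its difference from Levodopa comes from the treatment was not tested. The gut and salivary gland markers summed to 425 and 430 CPM in control and 309 and 306 in Levodopa, with Mur29B at 0 in every column and LManII making up most of the sum. CG13947 belongs to that list and is its only member that fell. The part of these tissues in the losses was not tested.

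**Figure D2:**
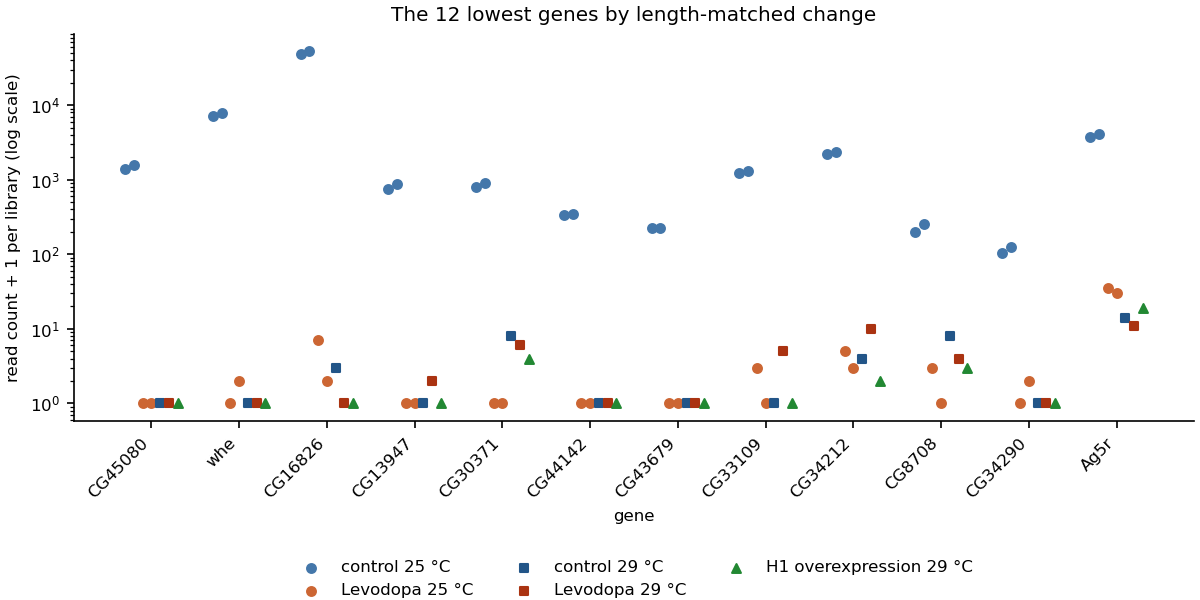
Read counts plus 1 (log scale) of the 12 genes with the lowest length-matched change, in the 4 columns at 25 °C and the 3 libraries at 29 °C. The control columns at 25 °C stand alone between 102 and 52557 counts, while Levodopa at 25 °C and all 3 libraries at 29 °C lie near the bottom of the axis; Ag5r is the highest of these in Levodopa, with 34 and 29 counts.

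Falling genes were neighbours at 1 place in the genome. On chromosome 3L of dm6, from 15050263 to 15053351, 4 genes on the minus strand fell: CG12310, CG43679, CG13461 and CG43680. CG43679 had 225 and 224 counts in control and CG43680 had 65 and 41, against a single count for the 4 genes together in Levodopa. CG12310 with 18 and 24 control counts and CG13461 with 13 and 7 rest on few reads. None of the 4 genes had a count in any library at 29 °C. No other run was found of 3 or more called genes that follow each other directly among the tested genes with starts within 50 kb. MtnB, MtnE and MtnD, which rose, also lie within 50 kb on chromosome 3R, but tested genes that were not called lie between MtnB and the others.

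Rises were smaller and mostly began from low levels. CG40439 rose from 6 and 14 counts to 333 and 232, with a length-matched log2 fold change of 4.97 ± 0.25 (SE, n = 2 columns per group; edgeR adjusted p = 4.54e-84). GstD5, a glutathione S-transferase of the delta class that conjugates toxic compounds, rose from 24 and 9 counts to 261 and 235, and at 29 °C it had 2 counts in control and 0 in Levodopa. Ugt37A3, a UDP-glycosyltransferase, rose from 29 and 52 counts to 331 and 316. In each of these genes the lower Levodopa column lay several times above the higher control column. CG16898, whose product carries an ecdysteroid kinase domain, had 198 and 213 counts in control and 1993 and 2034 in Levodopa. CG16926 rose from 385 and 378 counts to 1993 and 2063. At 29 °C CG16898 had 961 counts in control and 700 in Levodopa, CG16926 had 2816 and 1972, and Ugt37A3 had 160 and 90. For CG40439 these libraries held 8 and 10 counts. The list of ecdysteroid kinase domain genes was drawn up after these values were seen. Of its 43 tested members 3 rose and 0 fell, beside 1.36% and 1.28% of all tested genes. The median length-matched change of the list was -0.09 against 0.00 for all genes. Besides CG16898 the members that rose were CG11893, from 67.7 and 64.7 to 147 and 153 CPM, and CG33301.

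**Figure D3:**
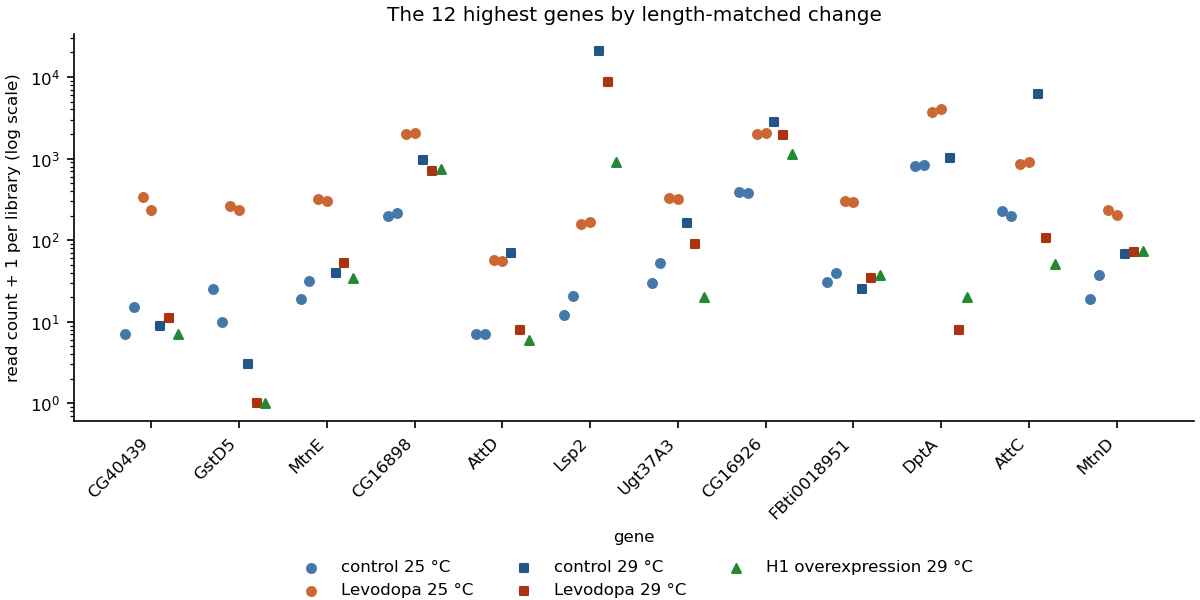
Read counts plus 1 (log scale) of the 12 genes with the highest length-matched change, drawn as for the falls. The Levodopa columns at 25 °C lie above the control columns in every gene, for example 333 and 232 against 6 and 14 counts for CG40439; at 29 °C the Levodopa library (square, red) lies far below its control for DptA, AttC, AttD and Lsp2.

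The counts of detoxification genes stand beside a share of 2.64% called by both fits over all tested genes. Of 33 tested glutathione S-transferases 1 rose and 0 fell, with a median length-matched change of -0.10, and of 26 UDP-glycosyltransferases 1 rose and 0 fell. Of 77 tested cytochrome P450 genes 2 rose and 2 fell. Cyp309a1 rose from 11.9 and 13.8 CPM to 45.4 and 43.1 CPM, and Cyp4g1, which makes the cuticular hydrocarbons in oenocytes, fell from 93 and 116 counts to 7 and 8. At 29 °C control held 6 counts of Cyp4g1 and Levodopa 8, so that here again the 25 °C control was the high sample. For Cyp309a1 the 29 °C control held 5600 counts (229 CPM) and Levodopa 4255 (162 CPM). None of the 17 tested antioxidant genes rose or fell. Sod2, the mitochondrial superoxide dismutase, was called in the plain fit at -1.02 and not after length matching at -0.64.

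The metal-binding metallothioneins were higher in Levodopa. MtnE went from 18 and 31 counts to 323 and 304, a length-matched log2 fold change of 3.75 ± 0.21 (SE, n = 2 columns per group). MtnD went from 18 and 37 counts to 236 and 202. MtnB had 0 and 4 counts in control and 14 in both Levodopa columns, and its call was lost in 3 of the 4 fits that left out a column and in DESeq2. The abundant member MtnA had 263 and 260 CPM in control and 340 and 339 CPM in Levodopa, below the 2-fold minimum. MTF-1, the metal-responsive transcription factor that drives these genes, had 15.8 and 17.3 CPM in control and 25.6 and 25.2 CPM in Levodopa. In all 5 tested genes of the list, MTF-1 among them, the columns did not overlap, as in 76.8% of all tested genes. Of the 5, 3 rose, beside a share of 1.36% over all tested genes. At 29 °C MtnE had 39 counts in control and 52 in Levodopa, and MtnD had 66 and 70. Of the 24 tested heat shock and chaperone genes 3 rose, all Hsp70 copies (Hsp70Aa, Hsp70Ba and Hsp70Bb) with nearly identical sequences, whose reads the counting could split. Hsp70Ba had 16 and 33 counts in control and 81 and 75 in Levodopa, and without the first control column Hsp70Aa was no longer called.

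The antimicrobial peptide genes were lower among the targets of Toll and mostly higher among those of Imd. In flies the Toll pathway answers fungi and Gram-positive bacteria and the Imd pathway mainly Gram-negative bacteria. Both act through secreted peptides, and each peptide gene was placed in only 1 of the lists here. Of 19 tested Toll peptide genes 0 rose and 8 fell, beside 1.36% and 1.28% of all tested genes. A negative length-matched change was found in 18 of the 19, with a median of -1.15. These genes are short (median exonic length 367 bases), and the tested genes near that length include non-coding and repeat features. With protein-coding genes alone, the length-matched median was -0.58, and 7 were called lower after matching, against 9. Drs, the antifungal drosomycin, had 349 and 359 CPM in control and 31.9 and 31.1 CPM in Levodopa, a log2 fold change of -3.49 ± 0.04 (SE, n = 2 columns per group). BomBc1, of the bomanin family, had 50.4 and 46.9 CPM in control and 5.58 and 5.11 CPM in Levodopa. Both genes were low in both Levodopa columns and high in both control columns. Drsl4 and Drsl5 of the drosomycin family, the bomanins BomS1, BomS5 and BomS6, and the serine protease homologue SPH93 made up the rest of the 8. Mtk (metchnikowin) was lower by less, from 113 and 118 CPM to 82.9 and 85.9 CPM. Bomanin and drosomycin-like genes lie in clusters of similar copies, so reads may be shared among them.

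Of 11 tested Imd peptide genes 5 rose and 1 fell, beside 1.36% and 1.28% of all tested genes. With protein-coding genes alone, the length-matched fit called 8 higher and 0 lower, at a median of 1.22 against 0.67. DptA, a diptericin, had 32.6 and 30.8 CPM in control and 119 and 127 CPM in Levodopa. DptB had 79.4 and 75.3 CPM in control and 168 and 178 CPM in Levodopa. AttC, an attacin, had 9.2 and 7.25 CPM in control and 26.9 and 28.8 CPM in Levodopa. In these 3 genes both Levodopa columns were high and the groups did not overlap. AttD rose from 6 counts in each control column to 56 and 54, and edin from 28 and 62 counts to 104 and 120. Dro (drosocin) went the other way, from 96.7 and 91.9 CPM to 34.6 CPM in both Levodopa columns. Of 22 tested genes that carry the Toll and Imd signals none rose or fell. SPE, the protease that activates the Toll ligand, had 450 and 449 CPM in control and 183 and 180 CPM in Levodopa and was called in the plain fit only, at -1.31 against -0.91 after length matching. Of 14 tested recognition proteins only GNBP-like3 fell, from 121 and 118 CPM to 27.4 and 29.7 CPM.

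**Figure D4:**
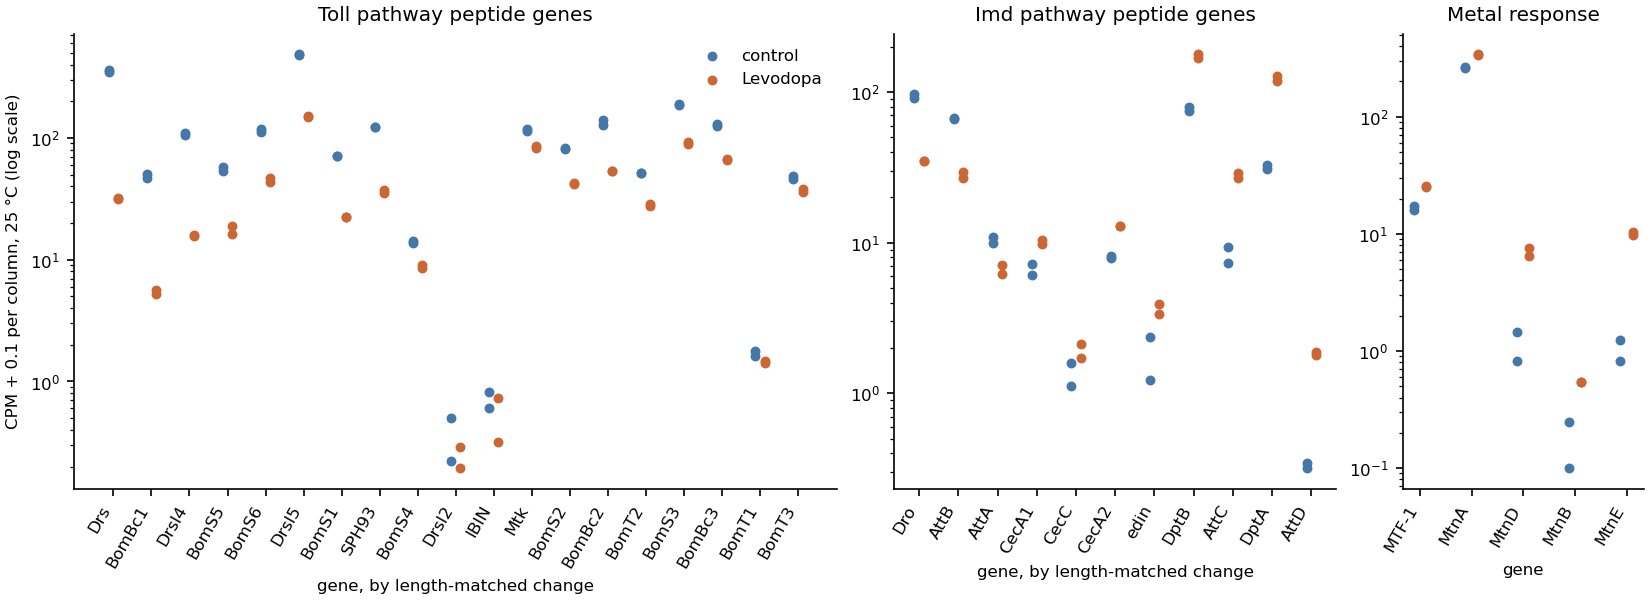
CPM plus 0.1 (log scale) of each tested gene in both columns of control (blue) and Levodopa (orange) at 25 °C, ordered by length-matched change, for Toll peptides, Imd peptides and the metal response genes. Levodopa lies below control in nearly all Toll peptide genes, with Drs at 31.9 and 31.1 against 349 and 359 CPM, whereas the Imd peptides spread in both directions from Dro, which fell, to AttD, which rose.

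Genes of fat storage and its mobilisation changed at a few points. Of 16 tested genes of lipolysis and the lipid droplet 0 rose and 3 fell, beside 1.36% and 1.28% of all tested genes. Lsd-1, a perilipin that coats lipid droplets, had 492 and 495 CPM in control and 168 and 166 CPM in Levodopa, a length-matched log2 fold change of -1.36 ± 0.03 (SE, n = 2 columns per group). AkhR, the receptor for adipokinetic hormone, the fly's fat-mobilising hormone, had 135 and 124 CPM in control and 59.4 and 57.9 CPM in Levodopa. For both genes both Levodopa columns lay below both control columns, and with the mitochondrial genome left out of the totals the plain change of AkhR was -0.89 and no longer called. CG6283 fell from 25 and 47 counts to 7 and 1 and was not called without the second control column. CG6283 belongs to the neutral lipases. The lipases bmm and Hsl stayed below the minimum. For bmm (brummer) the columns had 45.1 and 42.5 CPM in control and 60.8 and 61.5 CPM in Levodopa. Hsl had 47.6 and 51.4 CPM in control and 54.9 and 53.7 CPM in Levodopa. Akh, the hormone, had 18.7 and 20.5 CPM in control and 34.7 and 32.2 CPM in Levodopa; its length-matched change of 1.05 was called and its plain change of 0.77 was not. The matched call of Akh was lost without the first control column, with no filter and with summed columns, and its plain change was called when the mitochondrial genome was left out of the totals.

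Dgat2, an enzyme of the last step of triglyceride synthesis, rose from 44 and 38 counts to 132 and 120, the only one of 23 tested genes of fat synthesis that did. Lsp2, a storage protein of the fat body, rose from 11 and 20 counts to 158 and 166, but had 20606 counts in the control at 29 °C and 8698 in Levodopa. Of 8 tested genes listed as fat body markers 1 rose (Lsp2) and 3 fell (AkhR, Lsd-1 and Cyp4g1, the last a gene of oenocytes). Over all tested genes the shares were 1.36% and 1.28%. The summed level of these markers was 4920 and 4935 CPM in control and 4539 and 4532 CPM in Levodopa, and apolpp, the lipoprotein that carries fat in the blood, had 2667 and 2681 CPM in control and 2849 and 2846 CPM in Levodopa. The part of fat body content in the fat genes was not tested. Of 23 tested insulin and adipokinetic hormone signalling genes 1 rose, tobi, a glucosidase-like target of insulin signalling, from 4.56 and 4.08 CPM to 10.3 and 8.96 CPM, and AkhR fell.

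The nuclear genes of oxidative phosphorylation are short, with a median exonic length of 862 bases. Of 74 tested, 18 were lower in the plain fit at a median log2 fold change of -0.90, and none was called after length matching, at a median of -0.53. Negative changes remained in 68 of the 74. Of 85 tested cytoplasmic ribosomal protein genes 21 were lower in the plain fit, at a median of -0.89, and 1 (RpL39) after length matching, at a median of -0.53, with 2 positive values. RpL39 is short and lay at -0.63 in the plain fit; its length-matched call was lost with a filter of 50 counts, with a lowess length trend and with protein-coding genes alone. The plain calls of these lists depended on scaling: with total counts 0 oxidative phosphorylation and 3 ribosomal protein genes were lower, and with the mitochondrial genome also left out 0 of either. RpL5, a longer member, had 3700 and 3791 CPM in control and 2226 and 2205 CPM in Levodopa and missed the 2-fold minimum in both fits. Of 26 tested genes of fatty acid oxidation 8 were lower in the plain fit and 1 after length matching, at medians of -0.92 and -0.61; with total-count scaling the plain fit called 3, and with the mitochondrial genome also left out 0. That gene, Acox57D-d, is a peroxisomal acyl-CoA oxidase with 317 and 462 counts in control and 194 and 214 in Levodopa, and its call was lost without the second control column and without the first Levodopa column. Of 72 tested mitochondrial ribosome genes 2 were lower in the plain fit and none after length matching. The 21 tested genes of glycolysis and trehalose metabolism had a median of -0.64 before and -0.51 after matching, and none was called in both fits. Ldh, lactate dehydrogenase, had the largest positive length-matched change of the list and was called after matching only, with 14.7 and 12.7 CPM in control and 26.4 and 27 CPM in Levodopa.

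The protein-coding genes also differed by level. In the decile with the highest FPKM the median change after length matching was -0.31, and in the lowest decile it was 0.25. Ribosomal and respiratory genes are among the most abundant transcripts of a cell, and length matching does not match them for level. The 16 tested mitochondrial genome features, in contrast, were higher at a median of 0.35 before and 0.63 after matching. Among them mt:ND1, a subunit of complex I, had 2043 and 2163 CPM in control and 3537 and 3586 CPM in Levodopa. It was called in the length-matched fit, as was mt:ND2, and in neither case in the plain fit.

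**Figure D5:**
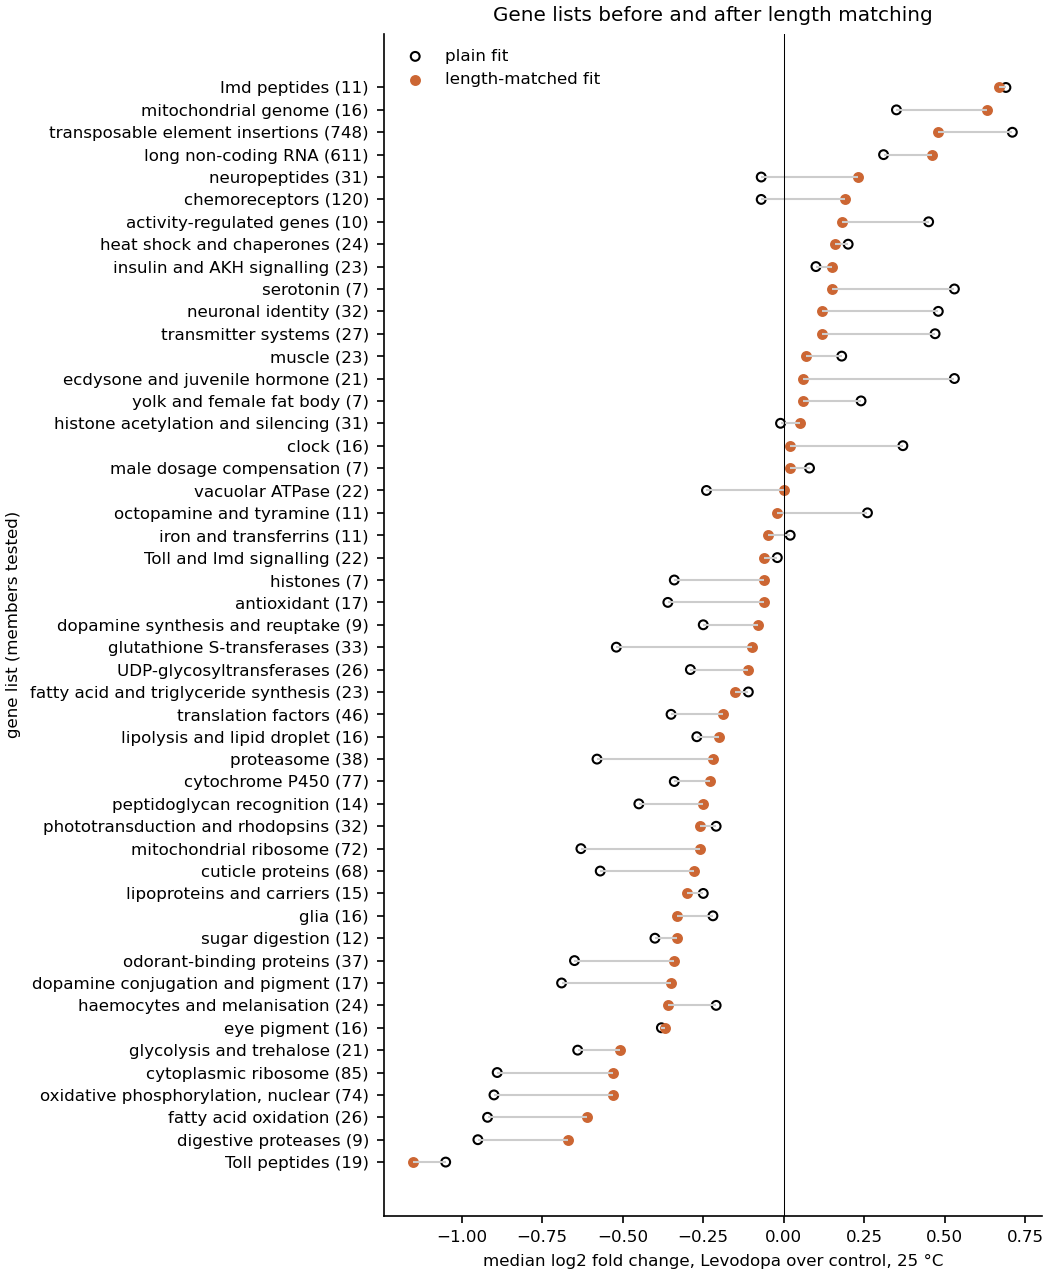
Median log2 fold change of Levodopa over control at 25 °C for each gene list with at least 7 tested members (number in brackets), before (open circles) and after (filled circles) length matching. Oxidative phosphorylation moves from -0.90 to -0.53 and neuronal identity from 0.48 to 0.12, while the Toll peptides stay lowest at -1.05 and -1.15.

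Neuronal genes lay above 0 in the plain fit and close to 0 after length matching. The 32 tested neuronal identity genes are long (median exonic length 6796 bases), and their median change was 0.48 in the plain fit and 0.12 after length matching, and none was called in either fit. Transmitter system genes (27 tested) went from 0.47 to 0.12 and clock genes (16 tested) from 0.37 to 0.02, also with no call. For the clock genes this held after matching in every setting run, whereas 0 to 3 were called higher in the plain fit, among them tim (plain change 0.99) in 7 settings. Among shorter neuronal genes Snap25, a protein of synaptic vesicle fusion, had 355 and 341 CPM in control and 545 and 557 CPM in Levodopa. Its length-matched change was 0.82, under the 2-fold minimum. The summed level of the 8 neuron markers was 2091 and 2065 CPM in control and 2920 and 2903 CPM in Levodopa. The 9 photoreceptor markers summed to 68434 and 68249 CPM in control and 52246 and 52094 CPM in Levodopa. Of these ninaE and Arr2, the most abundant, and Rh3 to Rh6 were lower in Levodopa. In contrast, ninaC and trp were nearly level, and norpA went from 1233 and 1243 CPM to 1792 and 1778 CPM. Neither sum is length matched. The median change was 0.45 before and 0.14 after matching for neuron markers, and -0.57 and -0.31 for photoreceptor markers. What part cell content has in the difference of either sum was not tested.

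Of 9 tested genes of dopamine synthesis and reuptake none was called in either fit, although ple was called higher in the plain fit when the mitochondrial genome was left out of the totals. For ple, the enzyme that makes Levodopa in the fly, the control columns had 93.1 and 89.5 CPM and the Levodopa columns 160 and 162 CPM, a length-matched log2 fold change of 0.62. Ddc overlapped between groups, with 44.8 and 44.7 CPM in control and 41.3 and 46.1 CPM in Levodopa. Hn, phenylalanine hydroxylase, had 680 and 671 CPM in control and 394 and 397 CPM in Levodopa. None of the 4 dopamine receptor genes was called, and their length-matched changes ran from -0.23 (Dop1R2) to 0.29 (Dop2R).

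Further down the pathway, of 17 tested genes of dopamine conjugation and pigment 0 rose and 3 fell, beside 1.36% and 1.28% of all tested genes. The 3 were all of the yellow family. The gene yellow-d had 142 and 148 CPM in control and 38.5 and 41.1 CPM in Levodopa. The gene yellow-e had 45.3 and 43.3 CPM in control and 17.7 and 16.4 CPM in Levodopa. The founding member y, needed for black pigment, fell from 63 and 84 counts to 28 and 23. For e (ebony), which conjugates dopamine to beta-alanine, the columns had 159 and 154 CPM in control and 88 and 80 CPM in Levodopa, a change called after length matching but not before, when its log2 fold change was -0.90. Of 16 tested eye pigment genes none rose or fell.

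Of 68 tested cuticle genes 0 rose and 6 fell, beside shares of 1.36% and 1.28% over all tested genes. The most abundant of the 6 was obst-E, a chitin-binding protein of the body wall, with 91.2 and 92.8 CPM in control and 40.4 and 39.3 CPM in Levodopa. Cpr76Bc, a chitin-binding cuticle protein, fell from 9.28 and 8.53 CPM to 3.28 and 4.04 CPM. Edg91 had 27 counts in each control column and 2 in each Levodopa column, and Cht8, Ccp84Ab and Lcp65Ag2 rest on similarly few reads; Ccp84Ab was not called after matching in 3 of the 4 fits that left out a column. In the plain fit 11 of the 68 were lower. Of 37 tested odorant-binding protein genes, whose products carry odours and other small molecules, 0 rose and 4 fell, against 8 lower in the plain fit. Obp99b, the most abundant of the 4, had 2326 and 2374 CPM in control and 327 and 337 CPM in Levodopa. Obp56a fell from 18.8 and 18.4 CPM to 2.59 and 2.37 CPM, and Obp56e and Obp8a fell by less. At 29 °C Obp99b also had fewer counts in Levodopa (36758) than in control (70333), as did Obp56a (258 against 700).

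A list of trypsin domain genes, drawn up after the values were seen, held 116 tested members, of which 3 rose and 11 fell. CG3088, the most abundant of those, had 1435 and 1453 CPM in control and 416 and 410 CPM in Levodopa. Its count at 29 °C was 44098 in control and 35429 in Levodopa. The median length-matched change of the list was -0.34. Over all tested genes 1.36% rose and 1.28% fell.

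Signals between tissues changed in a few genes, beside shares of 1.36% that rose and 1.28% that fell over all tested genes. Of 31 tested neuropeptide genes Dh44 rose and Nplp3 fell. Dh44, a diuretic hormone related to corticotropin-releasing factor, had 31.4 and 28.6 CPM in control and 74.5 and 69.8 CPM in Levodopa, a length-matched log2 fold change of 1.28 (edgeR adjusted p = 7.09e-100). Nplp3 had 887 and 886 CPM in control and 254 and 261 CPM in Levodopa. Both differences lay far outside the spread between columns. Of 21 tested ecdysone and juvenile hormone genes 0 rose and 2 fell: Jhe, the esterase that breaks down juvenile hormone, from 111 and 178 counts to 66 and 43 (not called after matching without the second control column), and phm, an enzyme of ecdysone synthesis, from 129 and 148 counts to 80 and 63. PPO1, a prophenoloxidase of blood crystal cells, fell from 164 and 169 CPM to 73.4 and 74 CPM, and the summed level of all 7 blood cell markers, PPO1 among them, was 529 and 527 CPM in control and 410 and 406 CPM in Levodopa. Among these markers NimC1 and PPO2 were also lower in Levodopa, while Hml, srp, lz and He had more CPM there. Hml had 184 and 177 CPM in control and 198 and 195 CPM in Levodopa. For srp the columns had 19.8 and 18.2 against 25.9 and 25.9 CPM, and for lz 12.3 and 12.8 against 15 and 13.8 CPM. The median change of the 7 markers was 0.12 before and -0.37 after length matching. What part blood cell content has in the fall of PPO1 was not tested.

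Most transposable element insertions and long non-coding RNAs had a positive length-matched change. Smaller classes differed, with matched medians of -0.40 for 23 small nucleolar RNAs, -0.22 for 14 microRNA precursors and 0.39 for 47 pseudogenes. Of 748 tested transposable element insertions 51 rose (83 called as higher after length matching, 105 before) and 4 fell. The shares over all tested features were 1.36% and 1.28%. A positive length-matched change was found in 543 insertions, and the median of the 748 was 0.48. Over the settings run, the plain fit called 56 to 185 insertions higher and the length-matched fit 47 to 113, with matched medians of 0.32 to 0.77. The insertion among the 12 highest genes, FBti0018951, had 30 and 39 counts in control and 300 and 297 in Levodopa. Insertions are counted at low depth, with a median of 56 counts over the 4 columns for the 529 shorter than 2000 bases and 72 for the longer 219, and copies of a family share sequence. The median length-matched change was 0.63 in the shorter group and 0.18 in the longer. Protein-coding genes of the decile with the lowest FPKM had a median of 0.25. At 29 °C the median over 441 insertions was 0.00. Of 611 long non-coding and antisense RNAs 32 rose and 6 fell, at a median length-matched change of 0.46, and over the settings run 10 to 78 were called higher in the plain fit and 26 to 99 after matching; the strand setting of the counting was not given in the sources used here, so reads of an antisense gene and its partner cannot be told apart. On chromosome 4, where most genes lie in heterochromatin, the 79 tested protein-coding genes had a median of 0.52 before and 0.26 after matching, with none called, against -0.07 and -0.03 for the 10194 protein-coding genes elsewhere.

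Histone genes gave little to measure. The 23 His1 genes, which encode histone H1, had 0 counts in both control columns and 0 and 1 in Levodopa; the messages of replication-dependent histones lack a poly(A) tail, and the libraries were made from poly(A) RNA. His4r, a polyadenylated H4 gene, had 547 and 574 CPM in control and 384 and 383 CPM in Levodopa, with a length-matched change of -0.06. Of 31 tested genes of histone acetylation and silencing none was called in either fit, and their median was 0.05 after matching.

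At 29 °C a separate control and Levodopa pair, with 24770629 and 25975838 counts, allows the genes to be read side by side but not tested, since each group has 1 library. Between those libraries, 0.923% of 10623 genes were at least 2-fold higher in Levodopa and 1.1% at least 2-fold lower, with 10 counts added. Of the 161 genes that rose at 25 °C, 122 could be compared; 3 of them were at least 2-fold higher and 9 at least 2-fold lower at 29 °C, and the median log2 fold change was -0.02. Of the 151 that fell, 116 could be compared; 3 were at least 2-fold higher and 10 at least 2-fold lower, with a median of -0.22. The genes that were lower at both temperatures included Drs (302 counts in control and 67 in Levodopa at 29 °C), Dro (542 and 63), SPH93 (56 and 0), Obp99b and Obp56a.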

How the data were processed

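Poly(A) RNA of fly heads was sequenced in paired-end mode, per the labels' protocols. The authors deposited raw counts for each gene, with FPKM (counts divided by exonic length and library size) beside them. The submitters' processing notes name HISAT2 2.2.1 and dm6. Which counter, strand mode and annotation were used is not given in the sources used here. Gene symbols were matched by identifier for all 23882 features. Among the 29 °C columns, 2 belong to no sample and were not used.

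Counts were tested with edgeR 4.0.16 (quasi-likelihood F test, TMM scaling) in R 4.3.3, on genes with at least 10 counts in 1 column, without a block for column number: across 9232 genes the deviations of same-numbered columns had r = 0.024, so the numbers do not pair the columns. CPM are on TMM-scaled library sizes, and FPKM served only to rank genes by level. For the length-matched fit, the running median log2 fold change over the genes nearest in length (100 on either side) was added as an offset. The variance between columns was 2.641 (control) and 2.075 (Levodopa) times the Poisson variance. On simulated counts with the length trend (11376 genes), the length-matched fit called 98 of 100 genes changed 2.5-fold, 100 of 100 changed 4-fold and 1 of 11176 unchanged genes; the plain fit called 75, 100 and 111. The simulated trend was the running median that the length-matched fit had itself estimated, so these figures do not rank the fits. The changed genes were drawn only from those with a mean of at least 50 counts, and every gene had the common dispersion. Power for genes with fewer counts was not simulated. These simulations hold only column-like spread.

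Named genes were, among those with at least 50 counts in 1 column, called in both fits and without overlap of columns, the 12 highest and 12 lowest by length-matched change, besides the 2 most changed tested members of each list, bmm, Hsl, Akh, AkhR, ple, Ddc and His4r, and runs of called neighbours; further members that both fits called are named with their list. Members, lists and rules were chosen with earlier results of these data known. The histone list, built from symbols, also took in HisRS and HisCl1, which are not histones. At 29 °C folds carry 10 added counts. Alternatives were other scalings, filters, a lowess length trend, a replicate block, leaving out each column, DESeq2 1.42.0, summed columns and, added after seeing the data, protein-coding genes alone. No sequence is printed.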

Additional observations from a re-analysis of the deposited data

Results flagged for a closer look

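Among the genes called in both fits at 25 °C, 12 changed at least 2-fold in the opposite direction at 29 °C. With 1 library per group at 29 °C the difference between the temperatures was not tested. The 29 °C values carry 10 added counts, and none of these patterns is explained here.

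5 of the 12 are Imd peptide genes, higher in Levodopa at 25 °C and lower at 29 °C. The log2 fold change of DptB was 1.16 at 25 °C and -6.59 at 29 °C. DptA had 1.96 and -5.98, AttC 1.76 and -5.89, edin 1.04 and -2.77, and AttD 2.89 and -2.27. The control libraries of the 2 temperatures themselves differed: AttC had 228 and 199 counts in the 25 °C control columns and 6267 in the 29 °C control.

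Another 4 genes shared this direction. Lsp2 had 3.10 at 25 °C and -1.35 at 29 °C, tobi 1.16 and -1.09, Ama (a cell adhesion protein) 1.47 and -1.01, and the insertion FBti0059745 1.49 and -1.01. The remaining 3 were lower at 25 °C and higher at 29 °C: CG34291 with -1.38 and 1.03, CG1773 with -1.58 and 1.04, and FBti0062861 with -3.29 and 1.09.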

How the results depend on the processing

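No named gene changed sign where it was called, but the balance of higher and lower genes did turn. Plain counts (237 higher, 371 lower) depended on scaling: total counts gave 355 higher and 208 lower, and total counts without the mitochondrial genome 526 higher and 156 lower. Length matching with that scaling gave 324 and 185, since it removes any shift common to all genes whatever the scaling. A filter of 50 counts gave 137 higher in the plain fit and 99 lower after matching, and no filter gave 195 higher and 235 lower after matching, so that lower genes outnumbered higher ones. DESeq2 gave 212 higher after matching. With protein-coding genes alone 113 were higher in the plain fit and 123 lower after matching. Leaving out each column, which leaves a group with 1 column assumed to vary like the other, gave 137 (without the second Levodopa column) to 190 higher and 312 to 373 lower in the plain fit, and 186 (without the second control column) to 226 higher and 138 to 158 lower after matching. A replicate block gave 218 higher and 361 lower (plain) and 285 and 175 (matched); the column numbers share only a number (r = 0.024). Over the settings run, Toll peptides had 0 members higher and 7 to 13 lower after matching, and Imd peptides 3 to 8 higher. Depth limits mainly the insertions and long non-coding RNAs.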
